A study of Mus musculus with 12 samples.

Results

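The 39 Hox cluster genes were followed in hematopoietic stem cells (HSCs) of C57BL/6 mice 12 weeks old, sorted from bone marrow. They are every protein coding feature of the expression table with a Hoxa, Hoxb, Hoxc or Hoxd symbol and a paralogue number, 39 of 46986 features, with 11 in cluster A, 10 in cluster B, 9 in cluster C and 9 in cluster D. RNA of 2000 sorted cells was sequenced in each of 12 libraries, which fall into 4 groups of 3. Control mice received neither agent. In the antibiotics group, drinking water held vancomycin, metronidazole, neomycin and ampicillin over 4 to 6 weeks, which is done to deplete gut bacteria. The control 5-FU and antibiotics 5-FU groups were studied on day 12 after 200 mg/kg of 5-fluorouracil (5-FU), an antimetabolite that kills dividing marrow cells, given into a vein. How the HSCs were gated is not given in the sources used here, nor whether each library is a separate animal, and the p-values therefore reflect only how these libraries spread. Levels are in RPKM (reads scaled to transcript length and to the number of mapped reads) as the authors made them, so that they can be compared between genes. Libraries are numbered within a group only as names.

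Hox genes encode transcription factors that bind DNA through a homeodomain, a stretch encoded by the homeobox. They lie in clusters that arose by duplication, and genes with the same number in different clusters (paralogues) descend from one ancestral gene. In the embryo their order along a cluster matches where along the body axis they are active. In blood, genes of clusters A and B are known to be most active in stem and progenitor cells, where HOXA9 acts with the cofactor MEIS1, and Hoxb5 has been used as a marker of long-term HSCs.

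Estimated depth was 44.0 to 54.75 M reads in control libraries, 27.75 to 54.05 in control 5-FU, 28.95 to 37.6 in antibiotics and 31.5 to 38.35 in antibiotics 5-FU. The summed level of 10 HSC markers (Procr, Slamf1, Kit and others) was 145 to 226 RPKM in the 12 libraries. Of 5 T and NK cell markers, Cd3e, Cd3g and Ncr1 were listed at 0 in all 12 libraries and Trbc1 reached at most 0.000151 RPKM, while the cytotoxic granule gene Nkg7 stood at 23.4 to 49.5 RPKM. The 5 B cell markers summed to at most 0.24 RPKM. Markers of stroma and endothelium (9 genes) summed to 15.9 RPKM in control 5-FU library 1, 30.6 in antibiotics 5-FU library 1 and 6.91 in control library 1, and to between 1.51 and 2.82 in the other 9 libraries. Calls on Hox genes that changed without the former pair of libraries are given.

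Only 6 of the 39 genes reached 1 RPKM in at least 3 libraries: Hoxa5, Hoxa7, Hoxa9 and Hoxa10 in cluster A, and Hoxb2 and Hoxb5 in cluster B. None of the 9 genes of cluster C or the 9 of cluster D did, and no gene besides these 6 reached 1 RPKM in any library. Hoxa9 had the highest mean over the 12 libraries, 9.29 RPKM, and ranked 2052 of the 8553 features that passed this filter, whose median was 3.53 RPKM. It was followed by Hoxb5 at 4.43, Hoxa7 at 3.4, Hoxa10 at 3.16, Hoxb2 at 2.5 and Hoxa5 at 1.06 RPKM. Hoxa7, Hoxa10, Hoxb5 and Hoxb2 overlapped in range (2.75 to 3.97, 2.49 to 3.97, 2.42 to 6.32 and 1.19 to 4.15 RPKM) and are not ordered by these means. The means also pool libraries with and without 5-FU. In the antibiotics group Hoxb5, at 2.8 RPKM, was below Hoxa10 at 3.54 and Hoxa7 at 3.19. In control it was near Hoxa7 (3.23 and 3.21), and in both groups given 5-FU it was above both. Of the other 33 genes, 10 had a highest value above 0.1 RPKM (5 in A and 5 in B), 14 had one above 0 but no higher than 0.1, and 9 were listed at 0 in all 12 libraries (2 in A, 2 in C and 5 in D). The 5 D genes at 0 were Hoxd1, Hoxd3, Hoxd10, Hoxd12 and Hoxd13. The last gene below the threshold was Hoxb7, with a highest value of 0.9 RPKM, and the last above it was Hoxa5, which reached 1 RPKM in 8 libraries, while the other 5 reached it in all 12.

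**Figure D1:**
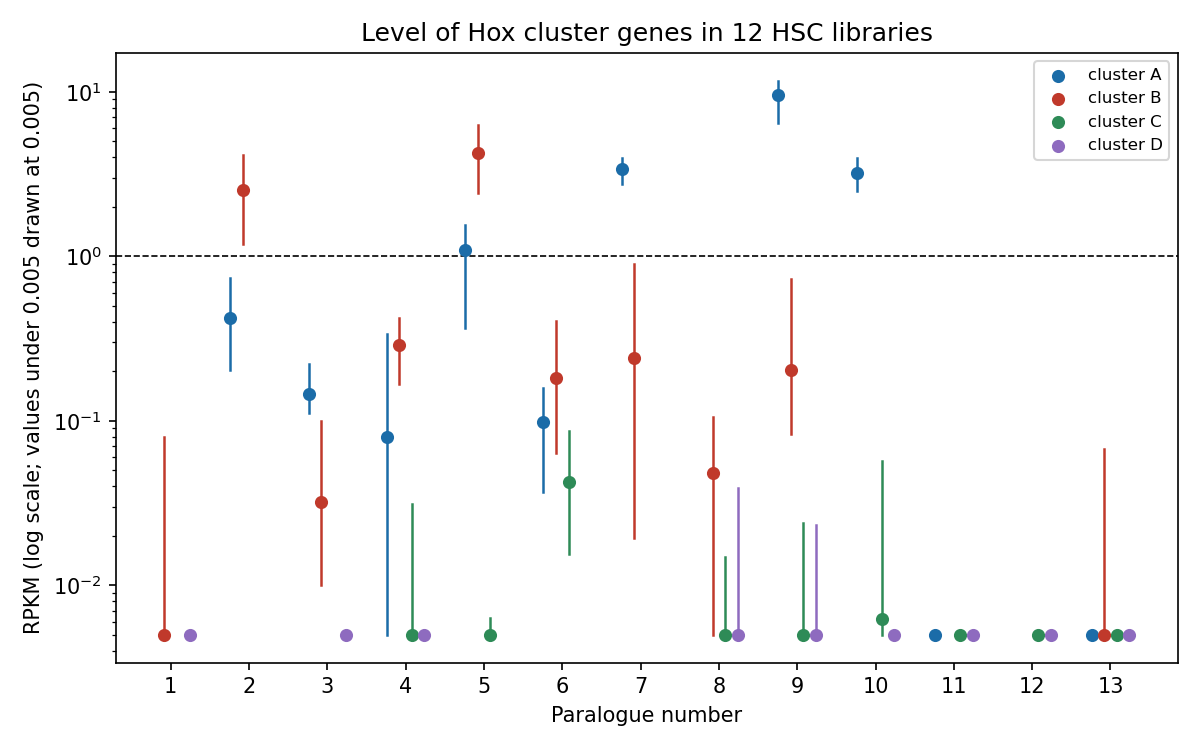
Level of the Hox cluster genes (RPKM, log scale; 1 gene of cluster A is not drawn) against its paralogue number, with 1 colour per cluster; points are medians over 12 libraries, lines run from the lowest to the highest library, values under 0.005 are drawn at 0.005 and the dashed line marks 1 RPKM. The 6 genes that cross the line in at least 3 libraries belong to clusters A and B, and cluster C and D genes stay at or below 0.0863 RPKM.

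Hoxb5 (chr11:96303336-96306121, + strand, mm10) was the member that differed most clearly with 5-FU. It stood at 3.4, 3.33 and 2.96 RPKM in the control libraries and at 6.1, 5.38 and 6.1 in control 5-FU. With antibiotics it stood at 2.74, 2.42 and 3.23 RPKM without 5-FU and at 5.08, 6.15 and 6.32 after it. Every 5-FU library lay above every library without 5-FU. The group means were 3.23 ± 0.235, 5.86 ± 0.417, 2.8 ± 0.411 and 5.85 ± 0.671 RPKM (SD, n = 3) in control, control 5-FU, antibiotics and antibiotics 5-FU. Hoxb5 rose after 5-FU by 0.70 ± 0.10 (SE) on the log2(RPKM + 1) scale without antibiotics and by 0.85 ± 0.10 with antibiotics, with adjusted p of 0.00138 and 0.000311 (limma, Benjamini-Hochberg over 8553 features). This scale understates fold changes of low genes. Over the alternatives run, including each library left out in turn, its change stayed between 0.65 and 0.85 without antibiotics and between 0.78 and 1.04 with them, and was called in 19 of 19 each.

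Hoxb2 (chr11:96350525-96354012, + strand, mm10), best known for patterning the hindbrain, lies in the same cluster. It stood at 1.75, 1.19 and 1.19 RPKM in control libraries and at 2.59, 2.69 and 3.68 in control 5-FU. With antibiotics its values were 2.46, 2.48 and 1.64 RPKM without 5-FU and 3.41, 2.76 and 4.15 after it. The groups with and without 5-FU did not overlap within either antibiotic condition, and the 6 libraries after 5-FU all lay above the 6 without it. Hoxb2 rose by 0.74 ± 0.16 (SE, log2 scale) without antibiotics, with a limma adjusted p of 0.0083, and this call held in 19 of 19 alternatives. With antibiotics it rose by 0.48 ± 0.16, with a limma adjusted p of 0.0393, a call that depended on single libraries. The adjusted p was 0.0564 without antibiotics library 2, 0.127 without antibiotics library 3, 0.0846 without antibiotics 5-FU library 1 and 0.139 without antibiotics 5-FU library 3. It was 0.122 with no filter on low values and 0.0507 with only the groups compared in the fit.

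The homeobox stretch of Hoxb2 is shown beside that of its paralogue Hoxa2, because near-identical paralogues can share reads. Each is 180 bases of coding sequence in exon 2 of 2 of the GENCODE M21 transcripts (mm10), 5′ to 3′ on the coding strand, and capitals mark the bases that differ between the pair, at chr11:96352985-96353164 (+) for Hoxb2 and chr6:52163411-52163590 (-) for Hoxa2.
Hoxb2: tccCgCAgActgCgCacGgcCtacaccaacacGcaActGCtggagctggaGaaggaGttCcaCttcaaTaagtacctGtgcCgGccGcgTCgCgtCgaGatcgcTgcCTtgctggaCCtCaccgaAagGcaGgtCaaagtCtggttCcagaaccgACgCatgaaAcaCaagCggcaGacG
Hoxa2: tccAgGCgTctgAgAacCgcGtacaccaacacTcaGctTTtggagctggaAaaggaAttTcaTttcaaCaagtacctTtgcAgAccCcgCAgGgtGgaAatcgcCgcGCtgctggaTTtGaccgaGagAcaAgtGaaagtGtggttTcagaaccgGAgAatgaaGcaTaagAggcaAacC
Hoxb2 and Hoxa2 differed at 46 of 180 bases (74.4% identity), with a longest shared run of 11 bases. Over whole transcripts, the longest exact run that Hoxb5 or Hoxb2 shared with any other Hox cluster gene was 28 bases for each, and among the 6 genes it was longest for Hoxa7, which shared 47 bases with Hoxa6 and with Hoxb4. How the authors assigned reads that match more than 1 gene is not given in the sources used here.

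In cluster A, Hoxa9, known as a regulator of stem cell self-renewal and a leukemia oncogene, stood at 7.71, 8.61 and 9.68 RPKM in control libraries, 6.46, 11.7 and 9.82 in control 5-FU, 8.92, 9.43 and 9.96 in antibiotics and 9.19, 10.2 and 9.79 in antibiotics 5-FU. Control 5-FU held both its lowest and its highest library, and groups with and without 5-FU overlapped. Its log2 change after 5-FU was 0.07 (95% interval -0.28 to 0.41) without antibiotics and 0.04 (-0.31 to 0.38) with them, and it did not pass the test in any of the 6 comparisons. The sign of its change without antibiotics turned when control library 1 or control 5-FU library 2 was left out (-0.01 and -0.10).

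Hoxa7, a neighbour of Hoxa9, stood at 2.96, 3.31 and 3.35 RPKM in control libraries and 2.75, 3.79 and 3.7 in control 5-FU. Its antibiotics libraries were at 2.83, 3.4 and 3.32 RPKM and those of antibiotics 5-FU at 3.64, 3.97 and 3.71. The latter pair of groups did not overlap, but its log2 change of 0.19 ± 0.10 had a limma adjusted p of 0.157. With the values rescaled to one total per library this became 0.33, with an adjusted p of 0.0313. Averaged over antibiotics Hoxa7 changed by 0.13 ± 0.07 (limma adjusted p 0.16), and it was called in 3 of 18 alternatives: with one total (adjusted p 0.0118), without control 5-FU library 1 (0.0198) and without both libraries rich in stromal markers (log2 change 0.19, adjusted p 0.0284). Hoxa10, which is involved in myeloid development, stood at 2.49, 2.72 and 2.99 RPKM in control, 2.96, 2.63 and 3.25 in control 5-FU, 3.97, 3.38 and 3.26 in antibiotics and 3.21, 3.44 and 3.56 in antibiotics 5-FU. Its log2 changes after 5-FU were 0.08 (95% interval -0.11 to 0.27) without antibiotics and -0.04 (-0.23 to 0.15) with them.

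Hoxa5, known for its part in lung and axial skeleton development, was the lowest of the 6. It stood at 0.366, 0.729 and 0.827 RPKM in control libraries, all below the 1.16, 1.05 and 1.13 of control 5-FU. With antibiotics it stood at 1.35, 1.12 and 0.892 RPKM without 5-FU and at 1.55, 1.01 and 1.55 after it, and these groups overlapped. The change without antibiotics, 0.38 ± 0.13 on the log2 scale, had a limma adjusted p of 0.0573, and with antibiotics the change of 0.16 ± 0.13 had one of 0.39. Averaged over both antibiotic conditions it rose by 0.27 ± 0.09, with a limma adjusted p of 0.0345, but this call held in 9 of 18 alternatives. Leaving out any of control library 1, control 5-FU library 1 or 3, antibiotics library 2 or 3, or antibiotics 5-FU library 1 or 3 gave adjusted p between 0.0551 and 0.0794. It was 0.0966 with no filter and 0.107 without the pair of libraries rich in stromal markers (log2 change 0.23). No control library of Hoxa5 reached 1 RPKM, and without 5-FU only antibiotics libraries 1 and 2 did. Hoxa5 thus passed the filter only with libraries after 5-FU, where it was higher, which limits what its rise shows.

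**Figure D2:**
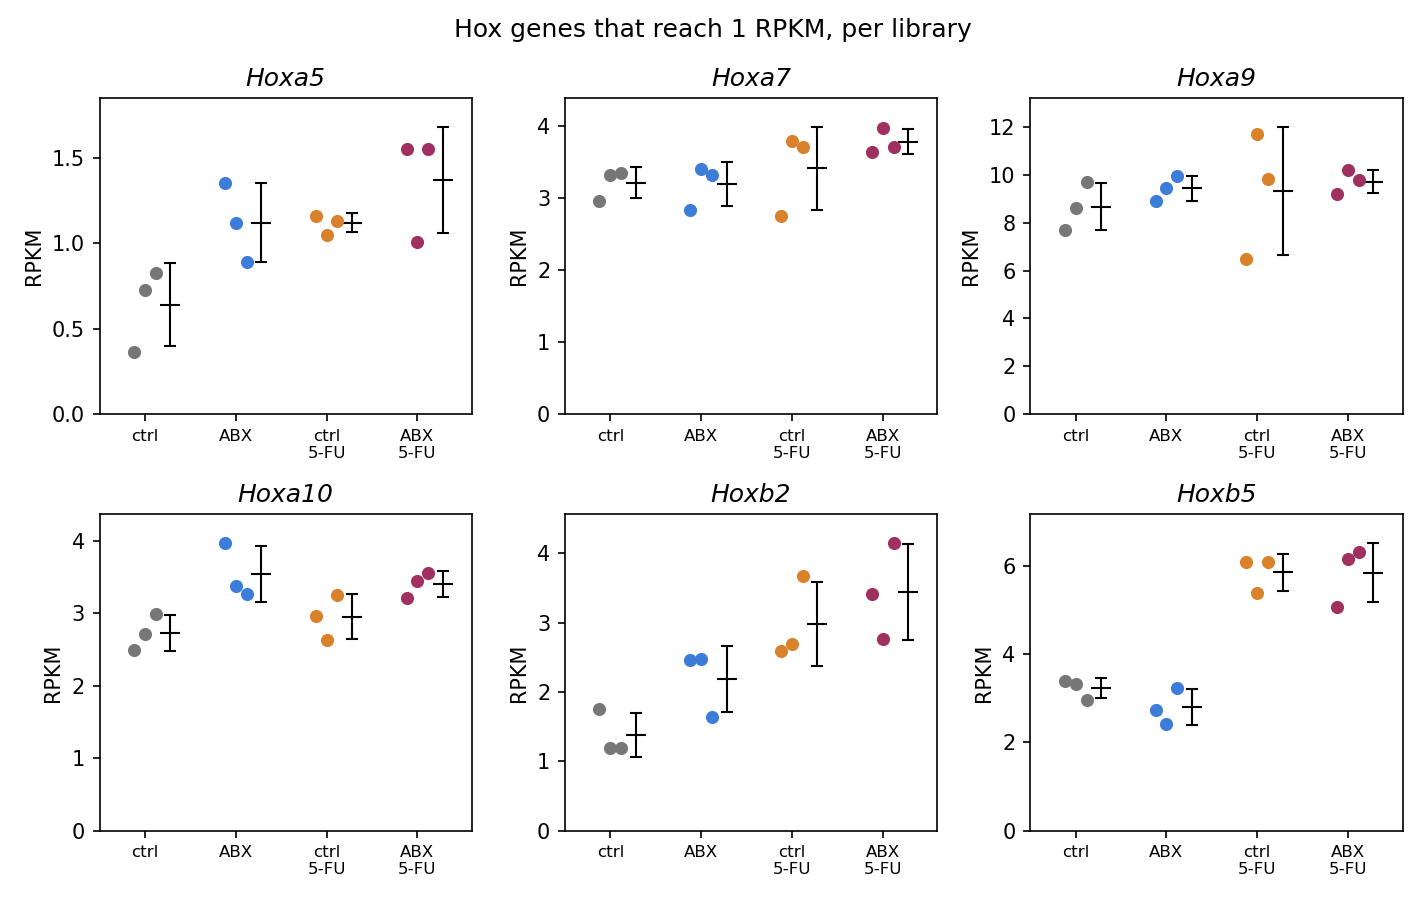
RPKM of the 6 Hox genes that reach 1 RPKM, 1 panel per gene with its own axis from 0, in control (ctrl), antibiotics (ABX), control 5-FU and antibiotics 5-FU; points are the 3 libraries of a group and bars the mean ± SD. For Hoxb5 and Hoxb2 all 6 libraries after 5-FU lie above all 6 without it. No cluster A gene stands apart in this way, though some pairs of groups do not overlap for Hoxa5, Hoxa7 and Hoxa10.

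After 5-FU without antibiotics, 2 of the 6 Hox genes tested were called higher and none lower, where 21.6% of all 8553 features were called and 9.74% were called higher. With antibiotics 2 were again called higher and none lower, against 30.2% called and 13.7% called higher of all features. Averaged over antibiotics, 3 were called higher (43.6% of all features called, 20.2% higher), and 2 to 4 over the alternatives. Of these 3, Hoxa5 passed the filter only with the libraries after 5-FU. The 2 genes called in each single comparison were Hoxb5 and Hoxb2. Groups did not overlap for 3 of the 6 genes without antibiotics (Hoxa5, Hoxb2 and Hoxb5) and for 3 with them (Hoxa7, Hoxb2 and Hoxb5), beside 37.0% and 49.9% of all features, and all 6 libraries after 5-FU stood apart from all 6 without it for Hoxb2 and Hoxb5, as for 17.9% of all features. The median log2 change of the 6 genes was 0.23 without and 0.17 with antibiotics, beside 0.005 and -0.014 over all features tested. The 6 genes include Hoxa5, with the limit just given. Averaged over antibiotics, Hoxb5 rose by 0.78 ± 0.07 (limma adjusted p 2.24e-05) and Hoxb2 by 0.61 ± 0.11 (limma adjusted p 0.00127). Rescaling each library to one total moved the median of all features in the 5-FU comparisons to 0.138 and 0.114, and the share of called features that were higher from 45.1% to 81.2% without antibiotics and from 45.4% to 74.1% with them. Under it Hoxa5 passed too without antibiotics (log2 change 0.47, adjusted p 0.0231). The i7 index of the libraries, taken from their titles, differs between all libraries with and without 5-FU, so index and 5-FU cannot be told apart.

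Other gene lists moved with 5-FU in the same libraries, and their part in the Hox result was not tested. Their counts of calls stand beside 21.6% of all features called without antibiotics (9.74% called higher) and 30.2% with them (13.7% called higher). All 8 of 8 DNA replication genes fell in both comparisons, with median log2 changes of -0.77 without and -1.09 with antibiotics. Of 8 HSC markers tested, 4 rose and 1 fell without antibiotics, and 5 rose and 1 fell with them. Among the 8, Ctnnal1 and Tek passed the filter only through libraries after 5-FU, with at most 0.908 and 0.959 RPKM without it. Slamf1, a surface marker of HSCs, stood at 1.26 ± 0.0925 RPKM in control and 2.17 ± 0.242 in control 5-FU (SD, n = 3). Erythroid markers (5 genes) summed to 19.2 to 135 RPKM in control and 118 to 156 in control 5-FU, and to 32.3 to 48.4 in antibiotics and 143 to 277 in antibiotics 5-FU. The neutrophil list (7 genes) summed to 8.31 to 19 RPKM in control, 8.38 to 18 in antibiotics and 11.2 to 33.9 in antibiotics 5-FU. In control 5-FU it was uneven, at 32.8, 86.7 and 249 RPKM in libraries 1, 2 and 3. Megakaryocyte markers (4 genes) summed to 32.7 to 119 RPKM in control, 70.9 to 352 in control 5-FU, 55 to 61 in antibiotics and 64.9 to 88.2 in antibiotics 5-FU. The 352 RPKM was control 5-FU library 1, beside 87.1 and 70.9 in libraries 2 and 3. The progenitor list (6 genes) ranged from 29.5 to 91.1 RPKM and the macrophage list (5 genes) from 1.92 to 15 over all libraries. Control 5-FU library 3 held the highest progenitor sum, with Elane at 26.8 RPKM there and at 0.62 and 1.53 in libraries 1 and 2 of its group. In RNA from sorted populations, fewer cells of a type and less RNA per cell cannot be told apart. Without the pair of libraries rich in stromal markers, Hoxb2 with antibiotics had a log2 change of 0.47 and an adjusted p of 0.0792.

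**Figure D3:**
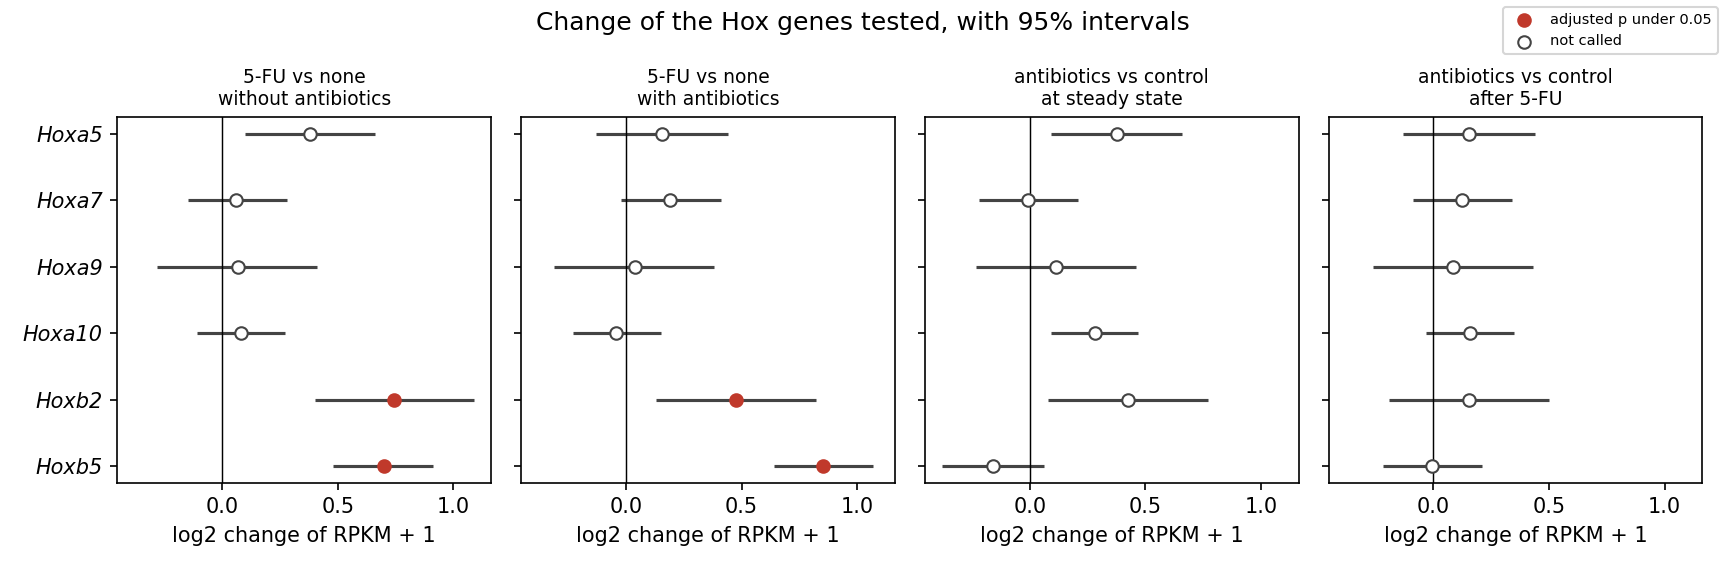
Log2 change of RPKM + 1 (x axis) of the 6 Hox genes tested in 4 comparisons, with 95% intervals from limma; filled points have an adjusted p under 0.05. Filled points appear only for Hoxb2 and Hoxb5 in the 2 comparisons of 5-FU against none.

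None of the 6 genes was called in either antibiotics comparison by limma, where 6 of 8553 features (0.0702%) were called at steady state and 10 (0.117%) after 5-FU. At steady state 3 genes had an unadjusted p under 0.05, where 17.8% of all features did. Hoxa10 stood at 2.49 to 2.99 RPKM in control and 3.26 to 3.97 in antibiotics without overlap, a log2 difference of 0.28 ± 0.09 with a limma adjusted p of 0.164. Hoxa5 did not overlap either, with a difference of 0.38 ± 0.13 and a limma adjusted p of 0.196. Over all features tested, 22.1% did not overlap in this comparison. Hoxb2 differed by 0.42 ± 0.16 at steady state, with a limma adjusted p of 0.212, and Hoxb5 by -0.16 (95% interval -0.38 to 0.06).

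After 5-FU, antibiotics against control gave log2 differences from -0.01 for Hoxb5 (95% interval -0.22 to 0.21) to 0.16 for Hoxa10 (-0.03 to 0.35), and none of the 6 genes was without overlap, where 21.2% of all features were. None had an unadjusted p under 0.05 there, where 14.9% of all features did. The 4 comparisons share groups with one another, so their values are not independent. The interaction, which asks whether the change after 5-FU differed between mice with and without antibiotics, called 1 of 8553 features (0.0117%) and no Hox gene. For Hoxb5 it was 0.16 (95% interval -0.15 to 0.46), for Hoxb2 -0.27 (-0.75 to 0.21) and for Hoxa5 -0.22 (-0.62 to 0.18). No unadjusted p for the interaction was under 0.05 among the 6 genes, where 8.3% of all features were. The p-values do not show that the changes were alike, since the intervals allow differences as large as those bounds.

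Summed over all members of a cluster, cluster A held 57.6% to 77.3% of the Hox RPKM of a library and cluster B 22.5% to 42.1%. The cluster B sum was 5.69, 5.53 and 5.17 RPKM in control libraries and 10.4, 9.23 and 11.1 in control 5-FU. With antibiotics it was 5.95, 5.55 and 5.91 RPKM without 5-FU and 10, 10 and 12.4 after it. All 6 libraries after 5-FU lay above all 6 without it, and the ratio of group means was 1.88 without and 1.86 with antibiotics. Hoxb5 and Hoxb2 made up most of the B sum: 3.4 and 1.75 of 5.69 RPKM in control library 1, and 6.1 and 3.68 of 11.1 in control 5-FU library 3. The B sum therefore mainly restates these 2 genes and does not show a rise of the cluster as a whole. The cluster A sum was 16 ± 1.91 RPKM in control, 17.9 ± 3.22 in control 5-FU, 18 ± 0.164 in antibiotics and 19.3 ± 0.44 in antibiotics 5-FU (SD, n = 3), ratios of 1.12 and 1.07. The A sums overlapped between control and control 5-FU and between the groups given 5-FU, but not between antibiotics (17.9 to 18.2) and antibiotics 5-FU (18.8 to 19.6), nor between control (14 to 17.8) and antibiotics. Without control 5-FU library 1, the difference of 1.38 RPKM in the A sum between antibiotics 5-FU and control 5-FU became -0.459. Hoxa9 alone made up 45.4% to 58% of it. The ratio of the B sum to the A sum within a library, which no scaling of the library can change, was 0.291 to 0.407 in control, 0.305 to 0.333 in antibiotics, 0.456 to 0.732 in control 5-FU and 0.516 to 0.631 in antibiotics 5-FU. Hoxb5 over Hoxa9 ranged from 0.256 to 0.441 in the libraries without 5-FU and from 0.459 to 0.945 after it. The C and D sums were at most 0.125 and 0.0425 RPKM.

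**Figure D4:**
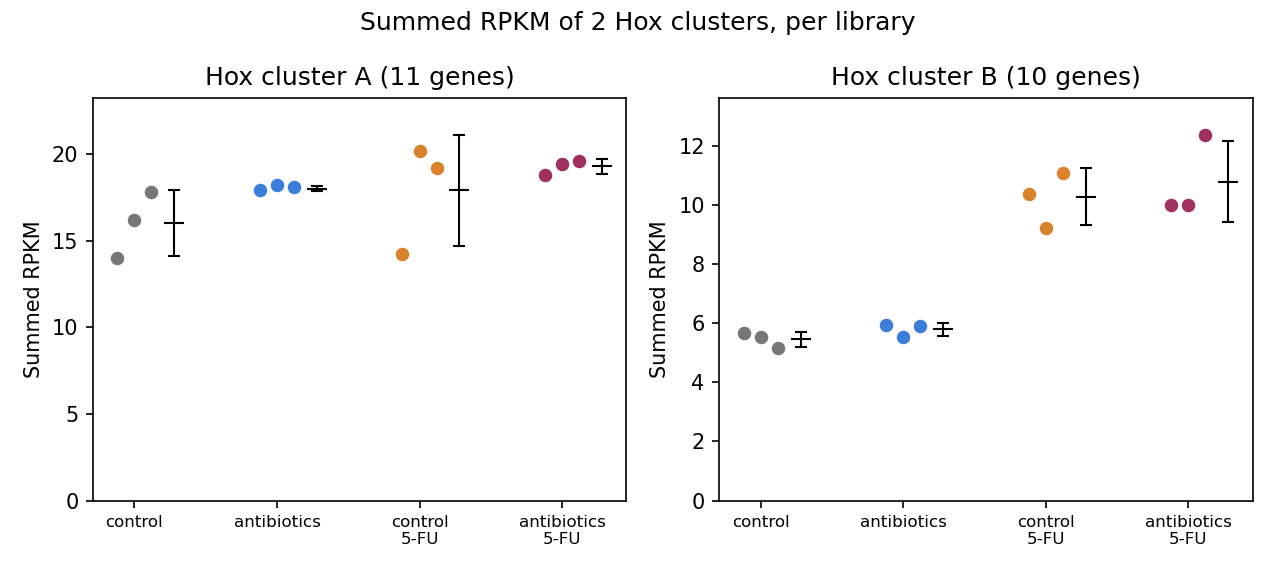
Summed RPKM of the 11 genes of Hox cluster A and the 10 of cluster B in each library, by group; points are libraries, bars the mean ± SD of 3, and both axes start at 0. The cluster B sums lie between 5.17 and 5.95 without 5-FU and between 9.23 and 12.4 after it, and the cluster A sums lie between 14 and 20.2.

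Below the filter, 10 genes had a highest value above 0.1 RPKM and were not tested. In cluster A these included Hoxa2 (highest 0.736), Hoxa4 (0.339), Hoxa3 (0.221) and Hoxa6 (0.159). In cluster B they were Hoxb7 (0.9), Hoxb9 (0.728), Hoxb4 (0.421), Hoxb6 (0.402) and Hoxb8 (0.106). Hoxb4, known for expanding HSCs when overexpressed, ranged from 0.167 to 0.421 RPKM, and its lowest library was a control. Hoxa2, the paralogue of Hoxb2, ranged from 0.205 to 0.736 RPKM, so that Hoxb2 stood above it in every group. At the estimated depths Hoxb4 rested on 17 to 58 reads and Hoxa6 on 1 to 5, beside 195 to 810 for Hoxb5 and 1000 to 3536 for Hoxa9. One read was worth between 0.00599 and 0.0412 RPKM at the lowest depth, depending on the length of the gene, so differences among genes near 0 were not detectable at this depth. Hoxc6 was the only cluster C gene above 0 in all 12 libraries, at 0.0156 to 0.0863 RPKM.

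Hoxb7 stood apart in single libraries. It was at 0.9 RPKM in control 5-FU library 1 and at 0.591 in antibiotics 5-FU library 1, and at 0.0194 to 0.27 in the other 10. These were the same libraries in which stromal and endothelial markers summed highest, with the endothelial cadherin Cdh5 at 1.91 and 1.0 RPKM there and at most 0.0704 elsewhere. The chemokine Cxcl12 stood at 4.72 and 23.4 RPKM in them, and at 4.98 in control library 1, where Hoxb7 was at 0.121. The part of such cells in the Hoxb7 values was not tested. The other 2 libraries of control 5-FU had 0.245 and 0.257 RPKM of Hoxb7, and those of antibiotics 5-FU 0.16 and 0.27.

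**Figure D5:**
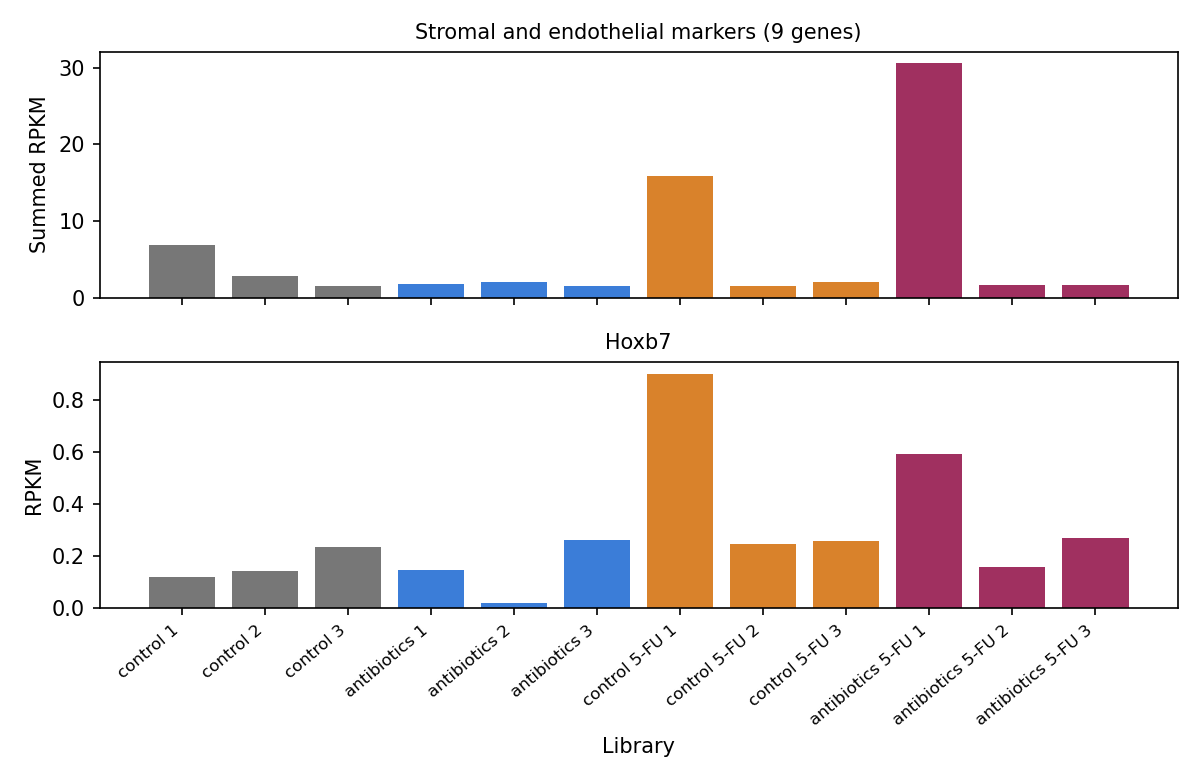
Summed RPKM of 9 stromal and endothelial markers (top) and RPKM of Hoxb7 (bottom) in each of the 12 libraries, 1 bar per library, coloured by group. The tallest bars of both panels are those of control 5-FU library 1 (15.9 and 0.9) and antibiotics 5-FU library 1 (30.6 and 0.591).

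Antisense genes overlap several members, and with the strand setting not given, reads of a gene and its antisense partner cannot be told apart. Hoxb5os covers the whole of Hoxb5 on the other strand and stood at 0.0597 to 0.0953 RPKM in libraries without 5-FU and 0.133 to 0.189 after it, on an estimated 1 to 7 reads. Hoxb3os covers the whole of Hoxb2 and reached at most 0.324 RPKM. Hoxa5 lies inside the span of Hoxa3 on the same strand, and Hoxaas3 overlaps Hoxa5 and Hoxa7 at no more than 0.0464 RPKM. Hotairm1, an antisense RNA in cluster A, stood at 0.0517 to 0.11 RPKM without 5-FU and 0.145 to 0.17 after it, on an estimated 2 to 8 reads. It and Hoxb5os are named after their values were seen. Of 47 other features inside the 4 cluster spans, 20 were above 0 in some library and 1, the pseudogene Gm11539 in cluster B, passed the filter; its log2 changes after 5-FU were -0.08 and -0.30 and did not pass the test. All 7 microRNA features there were listed at 0, in libraries made from poly(A) RNA.

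The nearest tested coding genes flanking each cluster moved in different directions after 5-FU. They are the nearest that passed the filter, not always adjacent genes, and lie from 116455 bp (Smug1) to 894119 bp (Hnrnpa3) from their cluster. Beside cluster B, Atp5g1, a subunit of mitochondrial ATP synthase, fell by 0.44 ± 0.12 (log2, limma adjusted p 0.0213) without antibiotics and by 0.66 ± 0.12 (limma adjusted p 0.00211) with them. Snx11, on the other side of it, changed by 0.05 ± 0.09 and -0.15 ± 0.09 and was not called. Beside cluster A, Hibadh was called in neither comparison and Skap2 rose with antibiotics by 0.32 ± 0.08 (limma adjusted p 0.0165). Beside cluster C, whose genes were near 0, Calcoco1 went from 4.74 ± 0.359 to 7.6 ± 0.561 RPKM without and from 4.27 ± 0.511 to 9.13 ± 0.675 with antibiotics (SD, n = 3), rising by 0.58 ± 0.09 and 0.95 ± 0.09 on the log2 scale (limma adjusted p 0.00216 and 9.82e-05). Smug1, on its other side, was not called. Beside cluster D, Atp5g3 and Hnrnpa3 fell in both comparisons, by 0.40 and 0.41 without and by 0.32 and 0.52 with antibiotics (limma adjusted p from 0.00529 to 0.0267). With one total per library, Atp5g1 (adjusted p 0.0641) and Hnrnpa3 (0.097) without antibiotics and Atp5g3 (0.134) with them were no longer called, nor were they with no filter (0.0674, 0.0674 and 0.064). With only the groups compared, Atp5g1, Atp5g3 and Hnrnpa3 without antibiotics were not called (0.0521 to 0.0762). Leaving out single libraries also ended calls: Atp5g1 without antibiotics lost its call without control library 1 or 3 or control 5-FU library 2 or 3 (adjusted p 0.0529 to 0.0791), and Skap2 without antibiotics library 2 or antibiotics 5-FU library 2 (0.053 and 0.0718). Without antibiotics, Atp5g3 lost its call without control library 3 or control 5-FU library 3 and Hnrnpa3 without library 2 or 3 of either group (0.0501 to 0.09), and with antibiotics Atp5g3 lost it without library 2 or 3 of either group (0.0537 to 0.111). Calcoco1 was called in all 19 alternatives of each comparison.

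Proteins that act with Hox factors or on their genes were read from lists of known function. Their counts of calls after 5-FU stand beside 21.6% of all features called without antibiotics, 30.2% with them and 43.6% averaged. Of 9 TALE homeodomain cofactors, which bind DNA together with Hox proteins, 3 were tested. Meis1 stood at 3.5 ± 0.0617 RPKM in control, 3.41 ± 0.415 in control 5-FU, 3.79 ± 0.298 in antibiotics and 3.28 ± 0.266 in antibiotics 5-FU (SD, n = 3) and was not called. Pknox1 fell with antibiotics by 0.29 ± 0.08 (log2, limma adjusted p 0.0216), and its change without antibiotics was 0.01 ± 0.08. The call was lost without antibiotics library 1 or 2 or antibiotics 5-FU library 1 or 3 (adjusted p 0.062 to 0.0708) and with one total per library (0.118).

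Among 11 tested genes of MLL complexes and elongation activators, which sustain Hox transcription, 3 rose and none fell after 5-FU without antibiotics, 1 rose with them, and the median log2 changes were 0.02 and 0.00. Mllt3, a subunit of the elongation machinery and a regulator of HSC maintenance, went from 0.485 ± 0.0955 to 0.955 ± 0.207 RPKM without and from 0.495 ± 0.0503 to 1.04 ± 0.048 with antibiotics (SD, n = 3). It rose by 0.39 ± 0.09 and 0.45 ± 0.09 on the log2 scale (limma adjusted p 0.0107 and 0.00374). Kdm6a, a histone demethylase that removes the Polycomb mark, rose without antibiotics by 0.24 ± 0.07 (limma adjusted p 0.0374), and Brpf1 by 0.19 ± 0.06 (limma adjusted p 0.0484). Kmt2a, which encodes MLL1 itself, stood at 0.674 to 1.28 RPKM and was not called. Mllt3 and Kdm6a reached 1 RPKM only in libraries after 5-FU, and stood at no more than 0.581 and 0.838 RPKM without it. They passed the filter only through the groups where they were high, which limits what their rise and the count of 3 show. Mllt3 was called in 18 of 19 alternatives without and 19 of 19 with antibiotics, while Kdm6a was called in 8 of 19 and Brpf1 in 4 of 19. Leaving out any library but control library 2 and the 3 antibiotics libraries ended the call of Kdm6a (adjusted p 0.0531 to 0.118), and leaving out any of the 12 ended that of Brpf1 (0.0518 to 0.147).

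Of 12 tested Polycomb genes, whose products silence Hox genes, 1 rose and none fell without antibiotics, and 1 rose and 2 fell with them. Ezh1 was the one that rose, by 0.36 ± 0.10 and 0.39 ± 0.10 (log2, limma adjusted p 0.0255 and 0.0126). Cbx6 and Eed fell with antibiotics, Cbx6 by 0.26 ± 0.08 (limma adjusted p 0.0318) and Eed by 0.39 ± 0.14 (limma adjusted p 0.0497). Averaged over antibiotics, 4 of the 12 rose and 1 fell, where 43.6% of all features were called, among them Cbx2 and Rnf2, which rose by 0.28 ± 0.08 and 0.19 ± 0.05 (limma adjusted p 0.0122 and 0.0132). Ezh1 lost its call without control library 1 or 3, control 5-FU library 2 or 3, antibiotics library 2 or antibiotics 5-FU library 2 in the comparison that holds it (adjusted p 0.0552 to 0.0991), and Cbx6 without any 1 of its 6 libraries (0.0578 to 0.0998). Cbx6 also lost it with one total per library (log2 change -0.097, limma adjusted p 0.396) and with no filter (0.0546). Without antibiotics Ezh1 lost it with no filter (0.0703) and with only the groups compared (0.05). Eed was just under the threshold, and its alternatives are not reported here. Bmi1, known to be needed for HSC self-renewal, stood at 2.34 ± 0.0657 RPKM in control and 4.22 ± 0.691 in antibiotics (SD, n = 3), with a limma adjusted p of 0.0607 for the difference. Ezh2 was below the filter at 0.616 to 1.13 RPKM. The 3 Cdx genes, which switch on Hox genes in the embryo, were at or near 0, with Cdx2 and Cdx4 listed at 0 and Cdx1 at no more than 0.00341 RPKM.

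Of 11 Cdx and retinoic acid pathway genes 3 were tested, and the retinoic acid receptor Rarg rose after 5-FU by 0.36 ± 0.08 without and 0.41 ± 0.08 with antibiotics (log2, limma adjusted p 0.0121 and 0.00441). It went from 0.504 ± 0.104 to 0.935 ± 0.144 RPKM and from 0.529 ± 0.095 to 1.03 ± 0.0332 RPKM (SD, n = 3). Rarg reached 1 RPKM only in libraries after 5-FU and stood at 0.384 to 0.627 RPKM without it. It thus passed the filter only through the groups where it was high, which limits what its rise shows. Its call held in 18 of 19 alternatives without antibiotics (limma adjusted p 0.0608 with only the groups compared) and 19 of 19 with them. Among 6 tested genes known to respond to HOXA9 or MEIS1, 2 rose without antibiotics and none was called with them. The transcription factors Myb and Sox4 rose by 0.50 ± 0.13 and 1.08 ± 0.35 (limma adjusted p 0.0239 and 0.0462). With antibiotics their changes were 0.21 ± 0.13 and 0.41 ± 0.35, and the interactions of -0.28 and -0.67 were not called. Without antibiotics Myb lost its call without control library 2 or 3 or control 5-FU library 2 or 3 (adjusted p 0.0565 to 0.0949), as did Sox4 (0.106 to 0.157), which also lost it without antibiotics library 2 or any antibiotics 5-FU library (0.0557 to 0.0613). The median log2 change of these 6 genes was 0.25 without and 0.07 with antibiotics. No gene of the 5 regulator lists was called in either antibiotics comparison or the interaction.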

How the data were processed

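RNA sequencing values of 12 libraries were used. Per the labels' protocols, RNA was made into libraries with SMART-Seq v4 and Nextera XT. STAR 2.5.3a, Partek and mm10 are named in the submitters' processing notes. Strand setting, counting rule and annotation release: each is not given in the sources used here. RPKM values were made and deposited by the authors, with 0.0001 in place of 0, read as 0 here, and were not scaled to one total: they sum to 142127 to 176924 per library. The sums were 165097 to 174252 in control, 165856 to 176924 in antibiotics, 142127 to 152916 in control 5-FU and 149886 to 157119 in antibiotics 5-FU. Every library after 5-FU thus summed to less than every library without it. The smallest steps between low values gave an estimate of depth. Only 57.7% to 61.3% of low values lay within 0.1 of a whole step, which does not recover reads, and count models were not used.

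The 8553 features that reached 1 RPKM in 3 or more libraries were analysed as log2(RPKM + 1). In limma 3.58.1 (R 4.3.3) the 12 libraries entered 1 model of 4 group means (8 residual and 3.34 prior degrees of freedom) with an intensity trend, two-sided tests and Benjamini-Hochberg adjustment over all features, called at 0.05, for 6 comparisons. The fit was run on simulated data with known changes and independent noise, which does not test the calls made on these data. Groups without overlap had every library of one above every library of the other. Alternatives were other scalings, a pseudocount of 0.1, no filter, no trend, fewer groups, an index term and leaving out libraries.

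The members and the 15 gene lists were chosen with earlier results of these data known. Every member past the filter was named with its values, others with their highest value above 0.1 RPKM, tested features inside or next to the clusters, and up to 4 called genes per regulator list with the smallest p, with Meis1, Kmt2a, Ezh2 and Bmi1 always. Hoxb5os, Hotairm1, Hoxb3os, Hoxaas3, Eed, Slamf1, Cdh5 and Cxcl12 were named outside this rule. Sequences and overlaps come from GENCODE M21, whose coordinates match all 39 members. Values of some genes, members included, and a sequence are not reported here.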

Additional observations from a re-analysis of the deposited data

How the results depend on the processing

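No paired analysis was possible because the labels give no replicate numbers, but titles share an i7 index between 1 library with and 1 without antibiotics, and a fit with that index as a term called no Hox gene in the antibiotics comparisons or the interaction. Hoxb5 in both 5-FU comparisons and Hoxb2 without antibiotics kept their direction and call in all alternatives run. Hox genes called with antibiotics after 5-FU numbered 1 in place of 2 with no filter, with only the groups compared and without the pair of libraries rich in stromal markers (chosen after seeing the data), where Hoxb2 was lost. With one library left out this count was 1 to 2. All features called numbered 812 (1846 in the main analysis) for 5-FU without antibiotics with only the groups compared, and 942 to 2078 with one library left out. For 5-FU with antibiotics they numbered 1624 to 2876. At steady state antibiotics called 12 with one total, 11 with no filter, 20 with an index term and 1 to 29 with one library left out (6 in the main analysis). After 5-FU it called 51 with one total, 3 with only the groups compared, 22 with an index term and 6 to 42 with one library left out (10). The interaction called 7 with no filter, 0 with an index term, 0 without the pair rich in stromal markers and 0 to 3 with one library left out (1). With one total, the difference of the cluster sums was 3.46 RPKM for A with antibiotics (1.22) and 4.18 for A (1.92) and 5.9 for B (4.79) without. With one library left out, that for A ran from 0.75 to 3.75 without antibiotics, and between the 5-FU groups from -0.459 to 2.54.

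The sign turned in changes that were not called: Hoxa10 after 5-FU with antibiotics with one total (0.093), and, without the same pair, antibiotics after 5-FU for Hoxa9 (-0.10) and Hoxb5 (0.10). With one library left out the log2 changes ran as follows. After 5-FU without antibiotics Hoxa9 ran from -0.10 to 0.28 and Hoxa7 from -0.002 to 0.17, and with antibiotics Hoxa10 from -0.086 to 0.025. Averaged, Hoxa10 ran from -0.009 to 0.053 and Hoxa9 from -0.032 to 0.161. For antibiotics at steady state Hoxa7 ran from -0.052 to 0.054, and after 5-FU Hoxa9 from -0.13 to 0.25 and Hoxb5 from -0.057 to 0.078. In the interaction Hoxa9 ran from -0.25 to 0.14. The causes were not tested. Depth limits what can be seen of low genes: Hoxa5 rested on an estimated 30 to 111 reads.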
